A study of Homo sapiens with 12 samples.

Results

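Genes of G1 cyclins, of the kinases CDK4, CDK6 and CDK2 and of the RB protein family were examined in HL60 cells, a human acute myeloid leukemia cell line. The 10 genes, CCND2, CCND3, CDK4, CDK6, CCNE1, CCNE2, CDK2, RB1, RBL1 and RBL2, were taken by symbol from the 59251 genes of the count table, and all 10 were among the 13318 genes that passed the expression filter. HL60 cells were harvested 48 h after no treatment (non-treated), treatment with 1 µM all-trans retinoic acid (ATRA), 1 µM palbociclib (CDK4/6i) or both drugs at these doses (CDK4/6i+ATRA). Each group had 3 RNA-Seq libraries, which the labels call biological replicates, and the study had 12. All groups are the same cell line in the same serum-containing medium, and a vehicle is not named for the non-treated cells.

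Progression out of G1 phase is controlled by kinases that work only when bound to a cyclin. D-type cyclins activate CDK4 and CDK6, which phosphorylate the RB protein and its relatives p107 (RBL1) and p130 (RBL2), and E-type cyclins with CDK2 continue that phosphorylation. Unphosphorylated RB proteins hold E2F transcription factors inactive, so that E2F target genes for DNA replication stay off, and several members of the pathway, CCNE1, CCNE2, CDK2 and RBL1 among them, are themselves known E2F targets. Palbociclib blocks the kinase activity of CDK4 and CDK6, which RNA levels do not measure, and ATRA is the retinoid used to differentiate myeloid leukemia cells.

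The libraries held 12230923 to 18679544 counts, with the lowest totals, 12230923 to 14415276, in cells given both drugs. In the latter, the 10 most abundant genes took 9.98% to 11.1% of counts, against 6.36% to 6.53% in non-treated cells, and genes of the mitochondrial genome took 4.64% to 6.09%, against 1.90% to 2.79%. The part of these differences in the results was not tested. The myeloid label was checked on its markers. MPO, an enzyme of immature myeloid granules, averaged 6517 CPM (counts scaled to a common library total by edgeR's TMM method) in non-treated cells and 28.0 CPM with CDK4/6i+ATRA, and ITGAM, which encodes CD11b, averaged 9.25 and 589.5 CPM. The other expressed genes of the immature myeloid list did not all follow MPO. CTSG went from 14.0 to 0.638 CPM, CD33 from 93.9 to 99.8, LYZ from 24.2 to 40.2, CEBPE from 169.6 to 284.5 and SPI1 from 301.8 to 855.1. ELANE, PRTN3 and AZU1, further defining granule genes, were listed at 0 in every library and lie on 2 contigs of the annotation, whereas each of the 10 genes lies on 1. Of the markers of other cell types, the 3 erythroid genes were at 0, the 3 T cell genes summed to at most 3.06 CPM and the 3 B cell genes to 12.6 to 25.0 CPM, most of it CD79A.

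The promoters of RBL1 and CDK4 are shown because with both drugs these genes kept the smallest part of their non-treated level among their close relatives. Each was also chosen because its window holds a match to a motif searched. CCNE1 met the first condition too, but its window held neither motif. Promoter windows spanned 300 bases (250 before and 50 after the start site, RefSeq, GRCh38.p14). Windows of 7 of the 10 genes were used, 11 in all, since a gene can have several start sites. They were searched on both strands for the E2F motif, spelled TTTCCCGC, TTTCGCGC, TTTGCCGC or TTTGGCGC, and for the E-box CACGTG, which the MYC family binds. No spelling contains another of the motifs searched. The RBL1 window, chr20:37095948-37096247 on the minus strand, held 2 E2F matches, at bases -26 to -19 and -16 to -9 from the start site, written in capitals.
RBL1 promoter: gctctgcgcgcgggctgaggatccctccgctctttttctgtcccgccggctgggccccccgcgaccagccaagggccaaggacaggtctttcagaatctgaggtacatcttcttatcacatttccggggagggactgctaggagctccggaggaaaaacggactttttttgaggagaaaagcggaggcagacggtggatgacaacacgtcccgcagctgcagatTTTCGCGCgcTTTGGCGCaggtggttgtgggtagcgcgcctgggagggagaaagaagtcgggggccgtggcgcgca

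The CDK4 window, chr12:57752261-57752560 on the minus strand, held 3 E-boxes, which begin at bases -216, -196 and -101 from the start site and are written in capitals.
CDK4 promoter: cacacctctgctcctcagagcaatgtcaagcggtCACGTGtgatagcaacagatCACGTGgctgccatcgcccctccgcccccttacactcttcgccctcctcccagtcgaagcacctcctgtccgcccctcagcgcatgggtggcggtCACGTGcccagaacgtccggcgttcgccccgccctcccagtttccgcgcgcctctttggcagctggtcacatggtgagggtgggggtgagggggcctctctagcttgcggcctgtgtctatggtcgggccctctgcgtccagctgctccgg

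Of 35116 such windows counted for comparison, 3.31% held an E2F match and 7.26% an E-box. Both promoters shown were chosen with their matches known, so these shares are no test of them. Of the windows of CDK6, the one at the outer start of the gene held 1 E-box, at bases 30 to 35, and the other held none. The windows of CCNE1, CCND3 and RBL2 held neither motif. The RB1 window lies at a start site inside the gene (base 48476450 of chromosome 13) and held neither motif, so the promoter at the outer start of RB1 was not searched. A match is a description of letters and does not show binding, and the absence of a match covers only these windows. No window of CCND2, CCNE2 or CDK2 was searched, so whether their promoters hold either motif was not tested.

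Compared with non-treated cells, 8 of the 10 genes fell and 2 rose with CDK4/6i+ATRA (quasi-likelihood test of edgeR, Benjamini-Hochberg adjusted p under 0.05). Of all tested genes, 40.7% fell and 41% rose, so that a call by itself was common, and the size of the change is given beside it. At least 2-fold falls were found in 7 of the 10 genes, against 23.3% of all tested genes, and at least 2-fold rises in 0, against 22.3%. These counts depend on the choice of genes, since CCND1, a D-type cyclin outside the 10, rose by 1.33 on the log2 scale. The median log2 fold change of the 10 genes was -2.62, and that of all tested genes was 0.02. The genes that fell at least 2-fold were CCND2, CDK4, CDK6, CCNE1, CCNE2, CDK2 and RBL1, RBL2 fell by less, and CCND3 and RB1 rose. In bulk RNA, fewer cells in a phase of the cell cycle and less RNA per cell cannot be told apart.

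**Figure D1:**
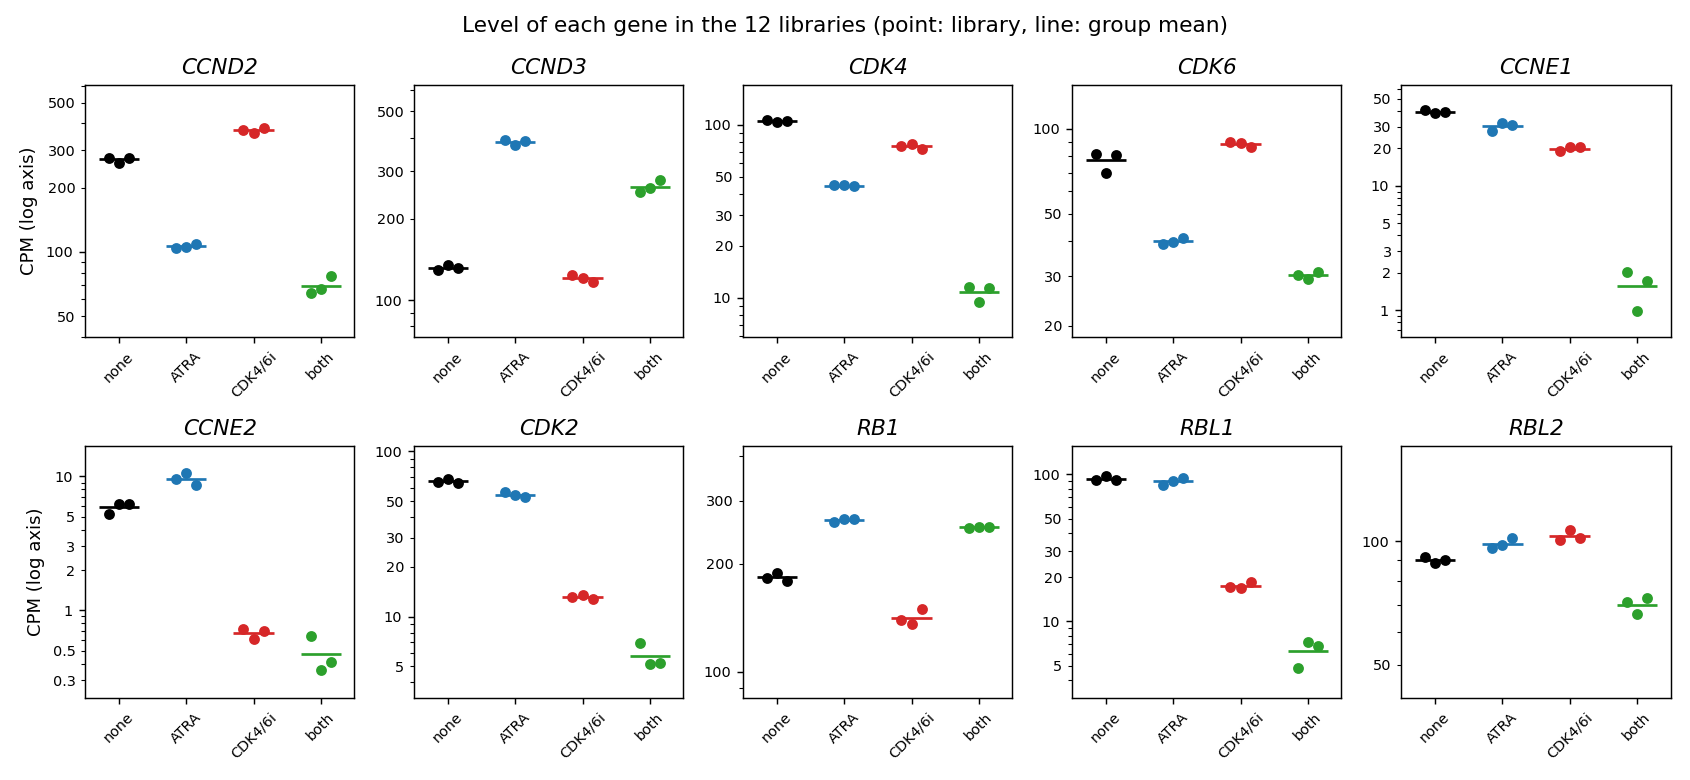
TMM-normalized CPM of each of the 10 genes (log axis, a different range in each panel) in the 12 libraries, by treatment (none, ATRA, CDK4/6i, both). Points are libraries and lines are the means of 3 libraries. CDK4 falls from a mean of 105.2 to 10.9 CPM and CCNE1 from 39.5 to 1.58 CPM with both drugs, whereas RB1 goes from 183.6 to 252.8 CPM.

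**Figure D2:**
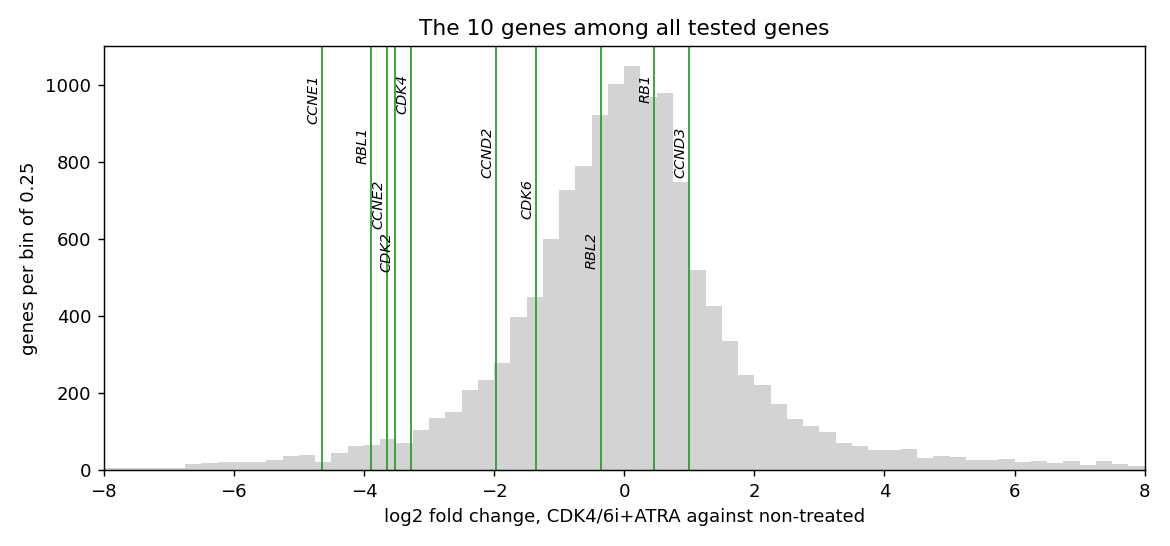
Number of tested genes per bin of 0.25 (y axis) by log2 fold change between CDK4/6i+ATRA-treated and non-treated cells (x axis), with a line at each of the 10 genes. The lines of 7 genes lie below -1, from CDK6 at -1.36 to CCNE1 at -4.64, and RBL2, RB1 and CCND3 lie between -0.36 and 1.00.

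With ATRA alone, 4 of the 10 genes rose (background 32.1% of all tested genes), 5 fell (background 35.5%) and RBL1 was not called. CCND3, CCNE2, RB1 and RBL2 rose, and CCND2, CDK4, CDK6, CCNE1 and CDK2 fell. With CDK4/6i alone, 3 rose (background 28.3%) and 7 fell (background 27.9%). CCND2, CDK6 and RBL2 rose, and the falls of at least 2-fold were those of CCNE2, CDK2 and RBL1. These comparisons share the non-treated libraries, so their values are set side by side and not correlated.

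**Figure D3:**
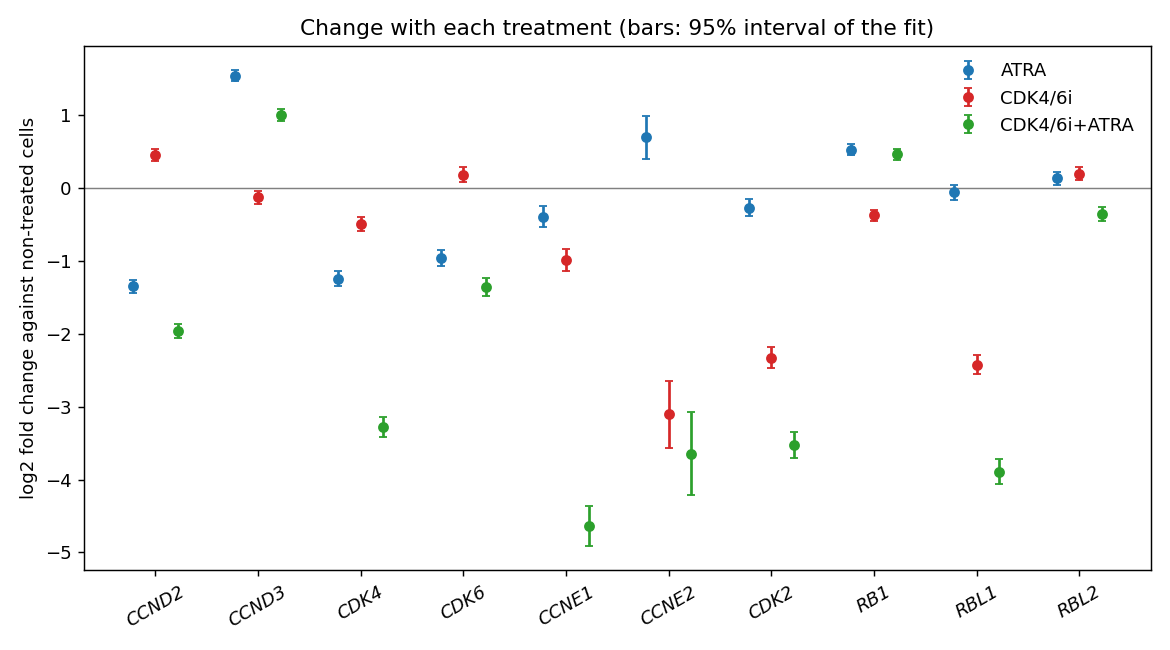
Log2 fold change (y axis) of each of the 10 genes with ATRA, CDK4/6i and CDK4/6i+ATRA against non-treated cells, with the 95% interval of the fit over 12 libraries. The points of CCND2, CDK4 and CDK6 are lower for ATRA than for CDK4/6i, whereas those of CCND3, CCNE1, CCNE2, CDK2, RB1 and RBL1 are lower for CDK4/6i, and those of RBL2 are close, at 0.14 and 0.20.

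CCND2 and CCND3 moved in opposite directions against non-treated cells in each treatment, whereas both fell when CDK4/6i was added to ATRA (log2 fold changes of -0.61 and -0.55). CCND2 (cyclin D2; chromosome 12, 4273762 to 4305353, plus strand, 5 exons) was measured at 275.1, 261.8 and 276.4 CPM in non-treated cells, at 104.7, 105.0 and 109.3 with ATRA, at 371.8, 361.8 and 378.5 with CDK4/6i and at 63.9, 67.3 and 76.9 with CDK4/6i+ATRA. No groups overlapped, and the order of the levels was CDK4/6i, non-treated, ATRA and CDK4/6i+ATRA. It rose with CDK4/6i (log2 fold change 0.45, SE 0.0391, adjusted p = 2.91e-14) and fell with ATRA (-1.35, SE 0.0425, adjusted p = 9.72e-32). With CDK4/6i+ATRA it fell further, by 1.96 on the log2 scale against non-treated cells and by 2.42 against CDK4/6i. The rise that CDK4/6i gave on its own was thus not seen in the presence of ATRA, where CDK4/6i lowered CCND2 (-0.61, SE 0.0501).

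CCND3 (cyclin D3; chromosome 6, 41934933 to 42048894, minus strand, 7 exons) was measured at 129.5, 135.6 and 131.4 CPM in non-treated cells, at 391.4, 374.9 and 390.0 with ATRA, at 124.2, 121.2 and 117.2 with CDK4/6i and at 250.6, 261.3 and 278.8 with CDK4/6i+ATRA. All ATRA-treated libraries, with or without CDK4/6i, were above all libraries without ATRA. The log2 fold change was 1.54 with ATRA (SE 0.0396, adjusted p = 1.61e-35) and 1.00 with CDK4/6i+ATRA (SE 0.0409, adjusted p = 1.96e-27). CDK4/6i lowered it slightly (-0.13, SE 0.0419, adjusted p = 0.00789), and without replicate 3 of CDK4/6i that fall was -0.10 with an adjusted p of 0.0631.

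Levels of different genes were compared per length, as RPKM (CPM divided by the summed exon length in kilobases). CCND2 made up 49.7% ± 1.32 (SD, n = 3) of the sum of CCND2 and CCND3 in non-treated cells, 59.6% ± 1.08 with CDK4/6i, 11.7% ± 0.274 under ATRA and 11.2% ± 0.426 with CDK4/6i+ATRA. Their sum was 84.1 RPKM in non-treated cells and 95.1 RPKM with CDK4/6i+ATRA, 113% of the non-treated level. The predominant D-type cyclin RNA of the pair was thus CCND3 in all ATRA-treated libraries. The 2 groups with ATRA overlapped (exact permutation test, two-sided, p = 0.2), and the other comparisons of this share did not overlap, at p = 0.1, the smallest p that 3 against 3 libraries allow. CCND1, the third D-type cyclin, is not in this share, and its values stand with the other CDK activators.

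The kinases that the D-type cyclins activate both fell with ATRA, and CDK4 fell far more than CDK6 with both drugs. CDK4 (chromosome 12, 57747727 to 57752310, minus strand, 8 exons) was measured at 106.1, 104.2 and 105.4 CPM in non-treated cells, at 44.9, 44.7 and 44.1 with ATRA, at 75.5, 77.1 and 72.2 with CDK4/6i and at 11.6, 9.54 and 11.4 with CDK4/6i+ATRA. No groups overlapped, and each drug alone lowered it. The log2 fold change was -1.24 with ATRA (SE 0.0499, adjusted p = 2.71e-27), -0.49 with CDK4/6i (SE 0.0468, adjusted p = 7.22e-13) and -3.27 with CDK4/6i+ATRA (SE 0.0688, adjusted p = 7.13e-40). The level left with both drugs was 10.3% of the non-treated level, whereas the product of the single-drug effects would leave 30.1%.

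CDK4 overlaps TSPAN31 on the opposite strand over 1078 bases, 57.8% of its length, and the strand setting of the read counting is not given in the sources used here. TSPAN31 rose with CDK4/6i+ATRA (log2 fold change 1.79, SE 0.0974, adjusted p = 2.29e-22), the opposite direction to CDK4. TSPAN31 held 3686 counts over the 12 libraries and CDK4 held 11915. The part of shared reads in either value was not tested.

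CDK6 (chromosome 7, 92604921 to 92836573, minus strand, 9 exons) ranged from 69.7 to 81.6 CPM in non-treated cells, from 39.1 to 41.0 with ATRA, from 85.9 to 89.5 with CDK4/6i and from 29.2 to 31.2 with CDK4/6i+ATRA. No groups overlapped. It fell with ATRA (log2 fold change -0.95, SE 0.0556, adjusted p = 7.63e-21) and with CDK4/6i+ATRA (-1.36, SE 0.0624, adjusted p = 2.19e-25). With CDK4/6i alone it rose by 0.19 (SE 0.0507, adjusted p = 0.00154), which was 0.12 with an adjusted p of 0.0644 without replicate 2 of the non-treated cells.

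Per length, CDK6 made up 10.4% ± 0.737 of the sum of CDK4 and CDK6 in non-treated cells, 12.4% ± 0.356 under ATRA, 15.7% ± 0.221 under CDK4/6i and 30.6% ± 1.81 under CDK4/6i+ATRA (SD, n = 3 each). Per length CDK4 was the more abundant RNA of the pair in every library, since the highest CDK6 share was 32.6%. By counts without division by length, CDK6 was the larger in all CDK4/6i libraries (53.6% to 54.3%) and all CDK4/6i+ATRA libraries (72.2% to 75.4%). The sum of both fell from 63.0 RPKM to 27.3 under ATRA, 47.6 under CDK4/6i and 8.38 under CDK4/6i+ATRA, 13.3% of the non-treated level. No groups overlapped in the CDK6 share in any of the 5 comparisons (exact permutation test, two-sided, p = 0.1 each, the smallest possible).

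**Figure D4:**
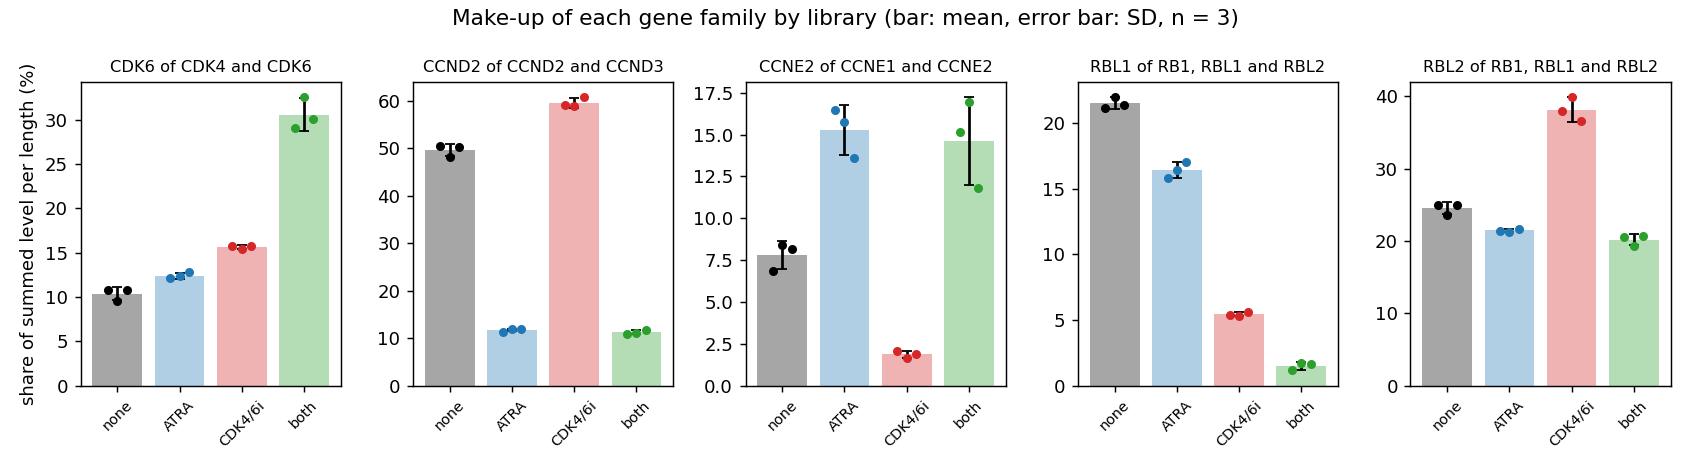
Share (%) of each named gene in the summed level per length of its family, by treatment (none, ATRA, CDK4/6i, both). Bars are means of 3 libraries, error bars are SD and points are libraries. CDK6 goes from 10.4% of CDK4 and CDK6 to 30.6% with both drugs, CCND2 from 49.7% of CCND2 and CCND3 to 11.2%, and RBL1 from 21.5% of the RB family to 1.52%.

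The E-type cyclins and their kinase CDK2 all fell with CDK4/6i, and CCNE1 and CDK2 fell further with both drugs. CCNE1 (cyclin E1; chromosome 19, 29811991 to 29824312, plus strand, 12 exons) was measured at 40.4, 38.5 and 39.5 CPM in non-treated cells, at 27.4, 31.8 and 31.0 with ATRA, at 19.2, 20.3 and 20.4 with CDK4/6i and at 2.02, 0.981 and 1.74 with CDK4/6i+ATRA. No groups overlapped, and the CDK4/6i+ATRA libraries held 11 to 22 counts each. The log2 fold change was -0.39 with ATRA (SE 0.0718, adjusted p = 4.28e-06), -0.99 with CDK4/6i (SE 0.0756, adjusted p = 4.98e-16) and -4.64 with CDK4/6i+ATRA (SE 0.136, adjusted p = 1.22e-33). The last was the largest fall of the 10 genes, and left 4.01% of the non-treated level where the product of the single-drug effects would leave 38.5%.

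CCNE2 (cyclin E2; chromosome 8, 94880224 to 94896693, minus strand, 16 exons) was the least abundant of the 10 genes. It was measured at 5.29, 6.27 and 6.25 CPM in non-treated cells, at 9.61, 10.6 and 8.67 with ATRA, at 0.726, 0.611 and 0.702 with CDK4/6i and at 0.642, 0.357 and 0.413 with CDK4/6i+ATRA. It was higher with ATRA than in non-treated cells (log2 fold change 0.70, SE 0.147, adjusted p = 4.40e-05), unlike CCNE1. With CDK4/6i it fell by 3.11 on the log2 scale (SE 0.23, adjusted p = 1.47e-16), and with both drugs it fell by 3.64 (SE 0.283, adjusted p = 1.61e-16). The groups with CDK4/6i and CDK4/6i+ATRA overlapped.

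Between CDK4/6i and CDK4/6i+ATRA, CCNE2 differed by -0.54 (SE 0.432, 95% interval -1.41 to 0.33, adjusted p = 0.252). These libraries held 10 to 14 and 4 to 7 counts, and a floor of 3 counts was 0.156 to 0.275 CPM over the 12 libraries. The interval covers no change and a fall of up to 1.41 on the log2 scale, so whether CCNE2 fell further was not settled. Counting floors cover counting error only, since the reads carry no molecular identifiers. CCNE2 overlaps INTS8 on the opposite strand over 1522 bases, 43.7% of its length. INTS8 held 8698 counts over the 12 libraries against 846 of CCNE2 and was not called with CDK4/6i+ATRA (log2 fold change -0.03, SE 0.0646, adjusted p = 0.689). The part of shared reads in CCNE2 was not tested.

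CDK2 (chromosome 12, 55966830 to 55972789, plus strand, 8 exons) was measured at 65.6, 67.7 and 64.2 CPM in non-treated cells, at 56.9, 54.3 and 52.7 with ATRA, at 13.1, 13.5 and 12.8 with CDK4/6i and at 6.87, 5.17 and 5.21 with CDK4/6i+ATRA. No groups overlapped, and most of the fall was already present with CDK4/6i alone. The log2 fold change was -0.27 with ATRA (SE 0.0567, adjusted p = 4.43e-05), -2.33 with CDK4/6i (SE 0.0691, adjusted p = 1.87e-32) and -3.52 with CDK4/6i+ATRA (SE 0.0895, adjusted p = 2.59e-36).

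Per length, CCNE2 made up 7.79% ± 0.831 of the sum of CCNE1 and CCNE2 in non-treated cells, 15.3% ± 1.51 under ATRA, 1.88% ± 0.212 under CDK4/6i and 14.6% ± 2.62 under CDK4/6i+ATRA (SD, n = 3 each). The share was thus lowest with CDK4/6i alone. It rests on 10 to 14 CCNE2 counts per library with CDK4/6i and on 4 to 7 with CDK4/6i+ATRA. The part of reads shared with INTS8 in this share was not tested. The groups with ATRA and CDK4/6i+ATRA overlapped (exact permutation test, two-sided, p = 0.7). The sum of both cyclins was 21.9 RPKM in non-treated cells, 18.2 under ATRA, 10.4 under CDK4/6i and 0.942 under CDK4/6i+ATRA, 4.30% of the non-treated level.

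Within the RB family, RB1 rose, and RBL2 and RBL1 fell with both drugs, RBL1 by far the most. RB1 (chromosome 13, 48303751 to 48481890, plus strand, 27 exons) was measured at 182.3, 189.2 and 179.3 CPM in non-treated cells, at 261.1, 267.1 and 266.5 with ATRA, at 139.3, 135.6 and 149.7 with CDK4/6i and at 252.5, 252.9 and 253.0 with CDK4/6i+ATRA. All libraries of both ATRA-treated groups were above, and all libraries of CDK4/6i alone below, the non-treated libraries. The log2 fold change was 0.53 with ATRA (SE 0.0377, adjusted p = 1.58e-17), -0.37 with CDK4/6i (SE 0.0392, adjusted p = 1.11e-11) and 0.46 with CDK4/6i+ATRA (SE 0.0388, adjusted p = 2.57e-15). CDK4/6i+ATRA and ATRA differed by -0.07 (SE 0.0379, 95% interval -0.14 to 0.01, adjusted p = 0.108), although their libraries did not overlap. This difference was called lower with library size alone (-0.37, adjusted p = 4.70e-11), with no filter (-0.16, adjusted p = 0.00150) and with only the groups compared (-0.14, adjusted p = 0.00164). With library size alone in place of TMM, the rise with CDK4/6i+ATRA was 0.20 (adjusted p = 2.02e-05), while the median of all tested genes moved from 0.02 to -0.25.

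RBL1 (p107; chromosome 20, 36996349 to 37095997, minus strand, 23 exons), whose promoter window holds the E2F matches shown above, was measured at 91.5, 97.9 and 91.4 CPM in non-treated cells, at 84.3, 89.96 and 95.1 with ATRA, at 17.1, 16.9 and 18.5 with CDK4/6i and at 4.86, 7.22 and 6.78 with CDK4/6i+ATRA. The non-treated and ATRA groups overlapped, with a difference of -0.06 (SE 0.0522, 95% interval -0.16 to 0.05, adjusted p = 0.326). RBL1 fell by 2.42 on the log2 scale with CDK4/6i (SE 0.0646, adjusted p = 1.77e-34) and by 3.89 with CDK4/6i+ATRA (SE 0.0864, adjusted p = 7.66e-39). ATRA, which did not change it detectably on its own, lowered it by 1.47 in the presence of CDK4/6i (SE 0.111, adjusted p = 8.34e-17).

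RBL2 (p130; chromosome 16, 53434471 to 53491648, plus strand, 24 exons) ranged from 88.4 to 91.2 CPM in non-treated cells, from 96.1 to 101.9 with ATRA, from 100.6 to 106.6 with CDK4/6i and from 66.6 to 72.6 with CDK4/6i+ATRA. The groups with either drug alone overlapped each other and were above non-treated cells, and the CDK4/6i+ATRA libraries were below all others. The log2 fold change was 0.14 with ATRA (SE 0.0441, adjusted p = 0.00610), 0.20 with CDK4/6i (SE 0.0439, adjusted p = 1.38e-04) and -0.36 with CDK4/6i+ATRA (SE 0.0483, adjusted p = 4.30e-09). The rise with ATRA was 0.11 with an adjusted p of 0.0510 without replicate 3 of ATRA, and the fall with CDK4/6i+ATRA was -0.62 with library size alone. RBL2 overlaps AKTIP on the opposite strand over 609 bases, 11.9% of its length. AKTIP held 1004 counts over the 12 libraries against 17428 of RBL2, and with CDK4/6i+ATRA it fell by 0.47 on the log2 scale (SE 0.182, adjusted p = 0.0157), the same direction as RBL2. The part of shared reads in RBL2 was not tested.

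Per length, RBL1 made up 21.5% ± 0.455 of the sum of RB1, RBL1 and RBL2 in non-treated cells, 16.4% ± 0.623 under ATRA, 5.44% ± 0.134 under CDK4/6i and 1.52% ± 0.306 under CDK4/6i+ATRA (SD, n = 3 each). RBL2 made up 24.5% ± 0.810, 21.5% ± 0.252, 38.1% ± 1.71 and 20.2% ± 0.751 in the same order. The RBL2 share was thus highest with CDK4/6i alone. Per length, no groups overlapped in either share in the 5 comparisons (exact permutation test, two-sided, p = 0.1 each, the smallest possible). Without division by length, the RBL2 shares under ATRA (21.8%, 21.5% and 22.0%) and under CDK4/6i+ATRA (21.7%, 20.4% and 21.8%) overlapped, so the difference between these groups depends on the scale. The family sum was 71.4 RPKM in non-treated cells, 89.5 under ATRA, 52.6 under CDK4/6i and 67.7 under CDK4/6i+ATRA, 94.9% of the non-treated level.

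The design further allows each drug to be compared in the presence of the other. With ATRA added to CDK4/6i, 7 of the 10 genes fell (background 39.5%), 2 rose (background 39.1%) and CCNE2 was not called. The largest fall was that of CCNE1, by 3.65 on the log2 scale (SE 0.152, adjusted p = 5.77e-27), followed by CDK4, by 2.78 (SE 0.0713, adjusted p = 5.99e-36). CCND3 rose by 1.13 and RB1 by 0.84. With CDK4/6i added to ATRA, 9 of the 10 genes fell (background 32.8%), 0 rose (background 36.9%) and RB1 was not called. The falls ranged from 0.40 on the log2 scale for CDK6 to 4.34 for CCNE2, and CCNE1 fell by 4.25. With library size alone, RB1 was also called lower (-0.37), CDK6 was at -0.71, and 31.6% of all calls in this comparison were higher, against 53.0% with TMM.

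The interaction, which is the log2 fold change with both drugs minus the sum of those with either drug alone, asked whether the combined effect differed from the product of the single-drug fold changes. It was below 0 for 9 of the 10 genes (background 27%) and above 0 for RB1 (background 24.5%), which was at -0.01 (adjusted p = 0.875) with library size alone. CCNE1 departed most, by -3.26 (SE 0.179, adjusted p = 3.59e-21), followed by CDK4 (-1.54, SE 0.0922), RBL1 (-1.41, SE 0.124), CCNE2 (-1.23, SE 0.452) and CCND2 (-1.07, SE 0.0635). CCNE2 was the least certain, with an adjusted p of 0.0197 that was 0.0507, 0.0661 and 0.0549 without CDK4/6i replicate 1, CDK4/6i+ATRA replicate 2 and CDK4/6i+ATRA replicate 3, respectively. CDK2 (-0.93), RBL2 (-0.69), CDK6 (-0.59) and CCND3 (-0.42) departed less.

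**Figure D5:**
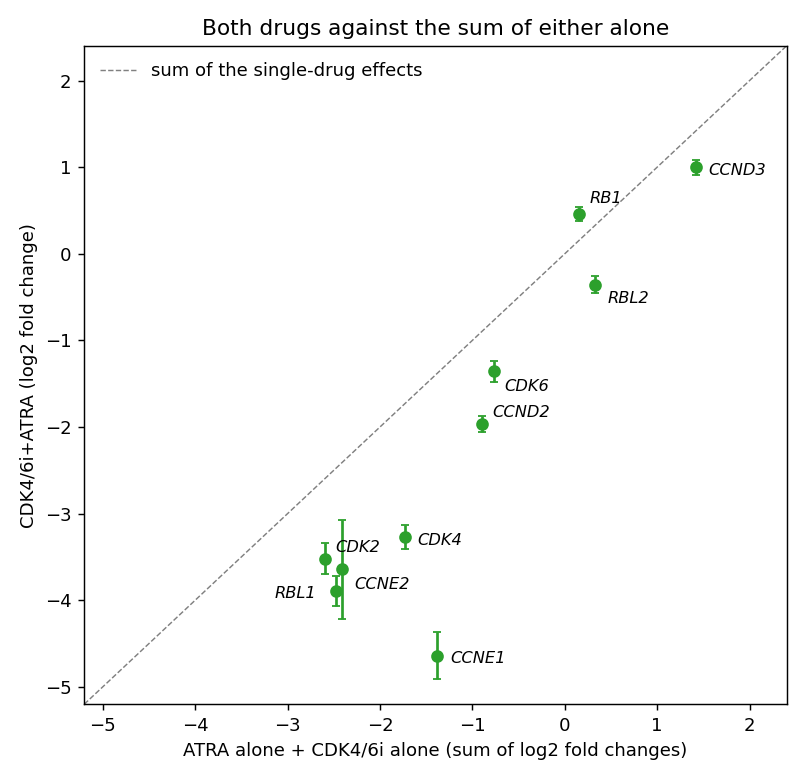
Log2 fold change with CDK4/6i+ATRA (y axis, with the 95% interval of the fit) against the values for ATRA alone and CDK4/6i alone added together (x axis) for the 10 genes. On the dashed line both are equal. CCNE1 lies farthest below it, at -4.64 against a sum of -1.38, 9 genes lie below it, and RB1 lies above it at 0.46 against 0.15 (with library size alone, RB1 departed from the line by -0.01).

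Other genes of the pathway were described by lists of known function, with counts of the tested genes and medians. For reading these counts, 40.7% of all tested genes fell and 41% rose with CDK4/6i+ATRA, 27.9% and 28.3% with CDK4/6i, and 35.5% and 32.1% with ATRA. Of 16 S phase genes known as E2F targets, 16 fell with CDK4/6i+ATRA, 16 with CDK4/6i and 12 with ATRA, where 2 rose. The median log2 fold change of the list was -4.78, -2.54 and -0.40, respectively. MCM10, needed to start replication, fell by 6.71 with both drugs (SE 0.185, adjusted p = 8.78e-35), and MCM4, a subunit of the replicative helicase, fell by 6.05 (SE 0.0725, adjusted p = 2.66e-50).

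Of 10 tested E2F and DP factors, 8 fell and 2 rose with CDK4/6i+ATRA (median -3.08). E2F1, an activator E2F that RB binds, fell by 5.99 on the log2 scale (SE 0.155, adjusted p = 6.21e-36). E2F8, an atypical repressor, went from 23.3 to 0.144 CPM, under the floor of 3 counts. E2F3 rose by 0.58 and E2F6, a repressor that RB does not bind, by 0.64.

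Of 8 tested other CDK activators and cyclins, 5 fell and 3 rose with CDK4/6i+ATRA (median -0.56). CDK1 and CCNA2 (cyclin A2), which act from S phase to mitosis, had log2 fold changes of -6.04 (SE 0.0935) and -5.98 (SE 0.0767). CCND1 (cyclin D1) averaged 92.5, 77.5, 189.6 and 232 CPM in non-treated, ATRA, CDK4/6i and CDK4/6i+ATRA cells, and rose by 1.33 with both drugs (SE 0.0404, adjusted p = 6.47e-33). It fell with ATRA alone, by 0.26 on the log2 scale. Its order of groups was thus unlike that of CCND2 or CCND3. CCNA1, a cyclin A of germ cells and myeloid leukemia, rose by 1.18 (SE 0.176).

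Of 6 tested CDK inhibitors, 3 rose and 3 fell with CDK4/6i+ATRA (median 0.67). CDKN2B (p15), which binds CDK4 and CDK6, went from 0.453 to 53.3 CPM (log2 fold change 6.84, SE 0.169, adjusted p = 7.15e-37). CDKN1A (p21), which inhibits CDK2, went from 0.226 CPM, close to the floor of 3 counts, to 20.9 CPM. CDKN2C (p18) fell by 2.95 (SE 0.128) and CDKN2A fell by 0.53 (SE 0.158). With ATRA alone 5 of the 6 rose and none fell.

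Of 13 tested genes of ubiquitin ligases that act on G1 cyclins and p27, 8 fell and 3 rose with CDK4/6i+ATRA (median -0.63). SKP2 and its cofactor CKS1B, which target p27 for degradation, had log2 fold changes of -3.15 (SE 0.0751) and -4.18 (SE 0.0902). FBXW7, which recognizes cyclin E, rose by 0.40 (SE 0.0753), and AMBRA1, which recognizes D-type cyclins, by 0.21 (SE 0.0597). Of the 5 MuvB genes, whose products bind p130 and p107 to form the DREAM repressor, 4 fell and 1 rose. LIN9 fell by 3.56 (SE 0.135) and RBBP4 by 1.11 (SE 0.0396), and LIN37 rose by 0.40 (SE 0.156, adjusted p = 0.0186). Of 13 RB phosphatases and co-repressors, 6 rose and 7 fell (median -0.43). ARID4A and ARID4B, which encode RB-binding proteins, rose by 1.02 and 1.496, and SUV39H1, a histone methyltransferase, fell by 3.76.

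The genes most like those with the largest change in each role were named by the smallest root mean square difference of centred log2(CPM + 1) over the 12 libraries, among 9291 genes. This is a description, with no test. For CCND2 they were ITM2C, MARS2 and ERCC2 (0.118, 0.121 and 0.122). For CDK4 they were PFAS, HES6 and AKAP1 (0.106, 0.107 and 0.121). PFAS encodes an enzyme of purine synthesis, and its log2 fold changes of -1.48, -0.58 and -3.54 with ATRA, CDK4/6i and CDK4/6i+ATRA resembled those of CDK4. For CCNE1 they were SLC29A1, SUV39H1 and SHMT1 (0.201, 0.206 and 0.206), less close than for the other genes. For RBL1 they were NSD2, ORC1 and RRM1 (0.0873, 0.124 and 0.168), of which ORC1 and RRM1 encode a replication origin protein and a ribonucleotide reductase subunit.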

How the data were processed

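RNA-Seq libraries of HL60 cells were made with a directional kit, and the authors used STAR 2.7.11a for alignment to hg38, with gene models of NCBI RefSeq. The submitters' processing notes also list Trimmomatic 0.33. The deposited values are raw gene counts, whole numbers without normalization, in a table laid out as featureCounts writes it, whereas the paper names RSEM. The GO annotation table was not used here.

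Counts were used as deposited. In edgeR 4.0.16 under R 4.3.3, filterByExpr kept 13318 genes, to which TMM scaling was applied. The quasi-likelihood F test on 1 model of the 12 libraries (8 residual degrees of freedom) gave 5 comparisons and the interaction, adjusted over all tested genes by the Benjamini-Hochberg method with a threshold of 0.05. This differs from the authors' use of DESeq2, which was an alternative here (version 1.42.0). Shares per length were compared by exact permutation tests (scipy 1.17.1). Promoters were RefSeq windows. The scripts were tested on simulated data in which few genes changed, as many up as down. The choice of scaling was not tested there.

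The 10 genes and the gene lists were chosen with earlier results of these data known. In each list, the genes named were up to 2 of the largest rises and 2 of the largest falls with CDK4/6i+ATRA among called genes with a mean of at least 5 CPM. CD79A, TSPAN31, INTS8, AKTIP and the marker genes were named outside this rule. Results were recomputed with a replicate block, with the DESeq2 test or its size factors, without TMM (library size alone), without a filter or with a minimum of 10 counts in each library, with only the groups compared, without each library, and for shares without division by length. Libraries of a group differed by more than sampling noise (chi-square per degree of freedom 1.85 to 6.81), so none was a copy of another. They were kept as replicates on their labels, since this check cannot show that they are independent. Figures were drawn with matplotlib 3.10.9.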

Additional observations from a re-analysis of the deposited data

Results flagged for a closer look

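For all 10 genes, the effect of ATRA in the presence of CDK4/6i differed from its effect without it, by the interaction test of edgeR with Benjamini-Hochberg adjustment over all tested genes, of which 24.5% were called above 0 and 27% below. On the log2 scale, the effect with CDK4/6i minus that without was -1.07 for CCND2, -0.42 for CCND3, -1.54 for CDK4 and -0.59 for CDK6. It was -3.26 for CCNE1, -1.23 for CCNE2 and -0.93 for CDK2. In the RB family it was 0.31 for RB1, -1.41 for RBL1 and -0.69 for RBL2. The RB1 value was -0.01 with library size alone. The CCNE2 call was lost on leaving out CDK4/6i replicate 1, CDK4/6i+ATRA replicate 2 or CDK4/6i+ATRA replicate 3 (adjusted p = 0.0507, 0.0661 and 0.0549).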

How the results depend on the processing

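Each of 60 values (10 genes in 6 comparisons) was recomputed under the alternatives, 1123 values in all. Of these, 1112 kept their direction and their side of the threshold. The interaction of RB1 was -0.011 (adjusted p = 0.875) with library size alone, against 0.31 with TMM. Library size alone moved the median of all tested genes with CDK4/6i+ATRA from 0.02 to -0.25 and that of the interaction from -0.02 to -0.34. The share of calls that were higher went from 50.2% to 40.5% for both drugs against none, from 49.8% to 36.7% against CDK4/6i, from 53.0% to 31.6% against ATRA and from 47.5% to 18.5% for the interaction. Values that it moved by over 1.5 times against ATRA were those of CCND2 (-0.92), CCND3 (-0.85), CDK6 (-0.71), RBL2 (-0.80) and RB1 (-0.37, adjusted p = 4.70e-11). Others were RBL2 with both drugs against none (-0.62), RB1 in the same comparison (0.20), RBL2 and CCNE2 against CDK4/6i (-0.83 and -0.81), RBL1 with ATRA (-0.02, not called either way) and the interactions of CCND3 (-0.74) and CDK6 (-0.91). RB1 against ATRA was also called with no filter (-0.16) and with only the groups compared (-0.14), and RBL2 with ATRA was not called with no filter (0.12, adjusted p = 0.0613). The cause was not tested. Counts without division by length gave differences between CDK4/6i+ATRA and non-treated cells of 31.3 percentage points for the CDK6 share (per length 20.2), -46.4 for CCND2 (-38.4), 10.3 for CCNE2 (6.84), -23.6 for RBL1 (-20.0) and -3.19 for RBL2 (-4.36), by construction. With at least 10 counts in every library CCNE2 was not tested.

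Same-numbered libraries did not deviate together (correlations of -0.114 to 0.0702 over 18 pairs, 0 of them over 0.1). Pairs of other numbers gave -0.0988 to 0.0946 over 36 pairs. Whether same-numbered libraries came from one culture cannot be told from these values, and the labels do not say. With the replicate block, 9, 10 and 10 genes were called with ATRA, CDK4/6i and CDK4/6i+ATRA, 9 against CDK4/6i, 9 against ATRA and 10 for the interaction, as without it.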
